A study of Mus musculus with 50 samples.

Results

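Mitochondrial and fatty acid oxidation genes were examined for DNA methylation in the soleus muscle of mice with and without Dnmt3a in their muscle fibres. The set held 55 genes, chosen by name and arranged in 12 roles, from fatty acid uptake to the respiratory chain. A CpG was taken as belonging to a gene when the authors' promoter or gene body column held that gene's identifier. By this rule 48 of the 55 genes had CpGs, with 654 CpGs of the 205304 measured, in 110 of the 51038 clusters of neighbouring CpGs. Cd36, Acadvl, Ucp3, Pdk1, Pdk3, Cox7a1 and Mfn1 had none.

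The assay was reduced representation bisulfite sequencing (RRBS), in which DNA is cut with MspI at CCGG and unmethylated cytosines are converted, so that each read calls a CpG as methylated or not. All mice were 12-week-old males and females on a C57BL/6 background and carried Dnmt3a flox/flox, with loxP sites around exon 19. WT mice had no Cre. The knockout mice (KO in the sample labels, mD3AKO here) carried Cre under the muscle creatine kinase promoter. This promoter is active late in muscle differentiation. The paper considers satellite cells and non-muscle cells, such as immune cells, the likely source of the Dnmt3a transcript that remained. Muscles were taken at rest, after 30 min in a sham treadmill arena, or at 10, 30 or 60 min after 30 min of treadmill running at 16 m/min. The groups at rest, 10, 30 and 60 min held 5, 5, 5 and 6 WT mice and 5, 5, 7 and 6 mD3AKO mice, or 44 of the 50 samples of the series. Each sample was a single soleus muscle and held between 12819404 and 41285655 CpG calls, with medians of 18163428 in WT and 23180372 in mD3AKO. The level of Dnmt3a itself cannot be read from these data. In whole muscle, methylation within fibres and the mixture of cell types cannot be told apart.

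DNMT3A is a de novo DNA methyltransferase, an enzyme that places methyl groups on previously unmethylated CpGs. Promoters in CpG islands are as a rule unmethylated in all tissues, while methylation in gene bodies and at the edges of islands varies between cell types. Soleus is a slow, oxidative muscle that burns fatty acids: these enter the mitochondrion as carnitine esters, are shortened by beta-oxidation, and feed the tricarboxylic acid cycle and the respiratory chain. The estrogen-related receptors ESRRA, ESRRB and ESRRG are orphan nuclear receptors that share DNA-binding sites and, with coactivators of the PGC-1 family, drive transcription of genes for oxidative metabolism. UCP2 is a carrier protein of the inner mitochondrial membrane.

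Stretches of the called Esrrb and Ucp2 clusters, and of an Esrrg cluster that was not called, are shown first, from the plus strand of GRCm38, the assembly also called mm10. CpGs present in the table are in capitals. Other CpGs are in lower case.
Esrrb, intron, chr12:86422734-86422805: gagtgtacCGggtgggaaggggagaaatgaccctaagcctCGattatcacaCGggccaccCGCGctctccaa
Esrrb, intron, chr12:86423078-86423239: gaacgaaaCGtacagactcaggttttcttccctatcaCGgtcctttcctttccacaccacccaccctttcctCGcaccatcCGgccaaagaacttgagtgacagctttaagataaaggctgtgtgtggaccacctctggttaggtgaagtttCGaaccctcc
Esrrb, intron, chr12:86423615-86423706: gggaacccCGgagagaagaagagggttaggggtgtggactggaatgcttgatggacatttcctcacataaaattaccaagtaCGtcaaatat
Ucp2, upstream, chr7:100492562-100492612: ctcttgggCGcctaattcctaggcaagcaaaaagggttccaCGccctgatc
Ucp2, upstream, chr7:100493172-100493264: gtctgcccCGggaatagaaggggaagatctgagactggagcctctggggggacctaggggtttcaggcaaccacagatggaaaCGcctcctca
Ucp2, intron, chr7:100493604-100493676: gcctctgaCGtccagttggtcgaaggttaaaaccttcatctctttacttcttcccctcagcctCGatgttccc
Esrrg, upstream, chr1:187605484-187605638: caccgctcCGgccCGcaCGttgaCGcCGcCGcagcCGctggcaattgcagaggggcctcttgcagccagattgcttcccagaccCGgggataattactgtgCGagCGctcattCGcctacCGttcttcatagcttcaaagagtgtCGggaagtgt
The first Esrrb stretch and the second upstream Ucp2 stretch are shown because their CpGs had lower mean levels in both genotypes than those of the other printed stretches of their clusters. The Esrrg stretch is shown for the lowest p of that gene.

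In mD3AKO muscle methylation was lower at 2 clusters of the set, 1 in Esrrb and 1 in Ucp2, and no other cluster was called. A cluster was called when its Benjamini-Hochberg adjusted p, over all clusters of the table, was below 0.05 in edgeR's quasi-likelihood F test of the mean of the mD3AKO groups against the mean of the WT groups. The 2 calls among 110 clusters compare with 1.09% of all 51038 clusters. At an unadjusted p below 0.05 there were 12 of the 110, against 9.56% of all clusters. In 77 of the 110 clusters the mD3AKO mean was the lower, against 62.4% of all clusters. The median difference between genotypes (mD3AKO minus WT) was -0.51 percentage points over the clusters of the set and -0.46 points over all clusters. No cluster of the set had ranges of WT and mD3AKO samples that did not overlap, and 0.00784% of all clusters had such ranges.

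**Figure D1:**
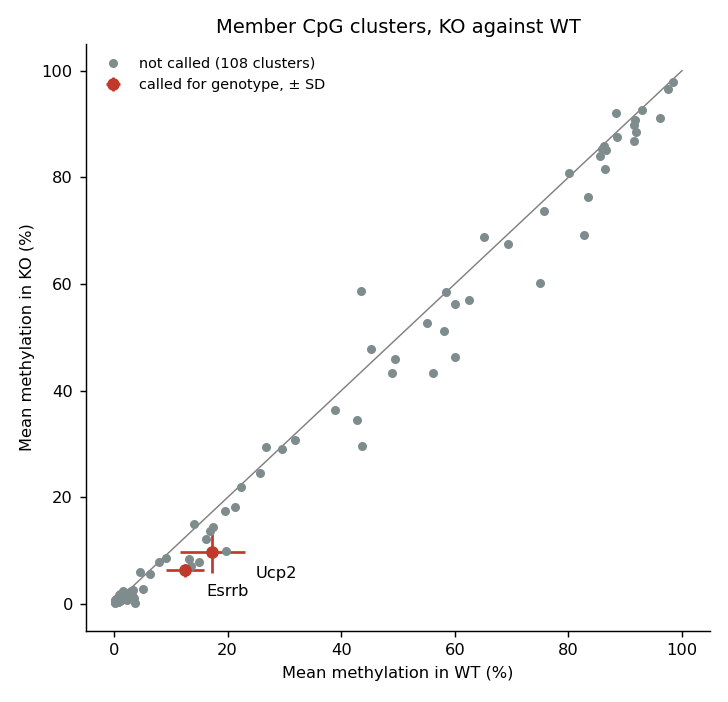
Mean methylation in mD3AKO (KO) against WT for the 110 clusters of the set, both in percent, over 21 WT and 23 mD3AKO samples. The diagonal marks equal levels, and the 2 called clusters are in red with their standard deviations. Most clusters lie near 0 or along the diagonal, and both called clusters lie below it between 5% and 20%.

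The clusters of the set were more often island-like than those of the whole table. An island-like cluster was one with a GC fraction of 0.5 or more in which CpGs stood at 0.6 or more of the number that base composition predicts. This held for 43 of the 110 (39.1%), against 19.3% of all clusters. In these 43 the median WT level was 0.54%, the median difference was 0.02 points and 21 were lower in mD3AKO. In the 67 other clusters the median WT level was 43.5%, the median difference was -1.70 points, and 56 were lower in mD3AKO. The same division of all clusters gave medians of -0.06 and -1.01 points. Both calls were among the 28 clusters with a WT level from 5% to 50%, a range in which 2.38% of all clusters were called.

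The medians differed between the roles of the genes. Among the 36 clusters of nuclear receptors and coactivators 30 were lower in mD3AKO, with a median of -2.23 points, whereas among 13 clusters of the respiratory chain and ATP synthase 7 were lower, with a median of -0.01 points. The 12 clusters of tricarboxylic acid cycle genes had a median of 0.03 points, and the 5 of mitochondrial fusion, fission and mitophagy a median of 0.09 points. For fatty acid activation and the carnitine shuttle, 8 of 9 clusters were lower in mD3AKO, with a median of -0.85 points. For malonyl-CoA control 11 of 15 were lower, with a median of -0.98 points. The roles were not matched for WT level. Over the set, the median difference was -0.01 points in clusters under 5% in WT, -2.82 points from 5% to 50% and -1.88 points at 50% or more. Differences between roles were not tested.

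**Figure D2:**
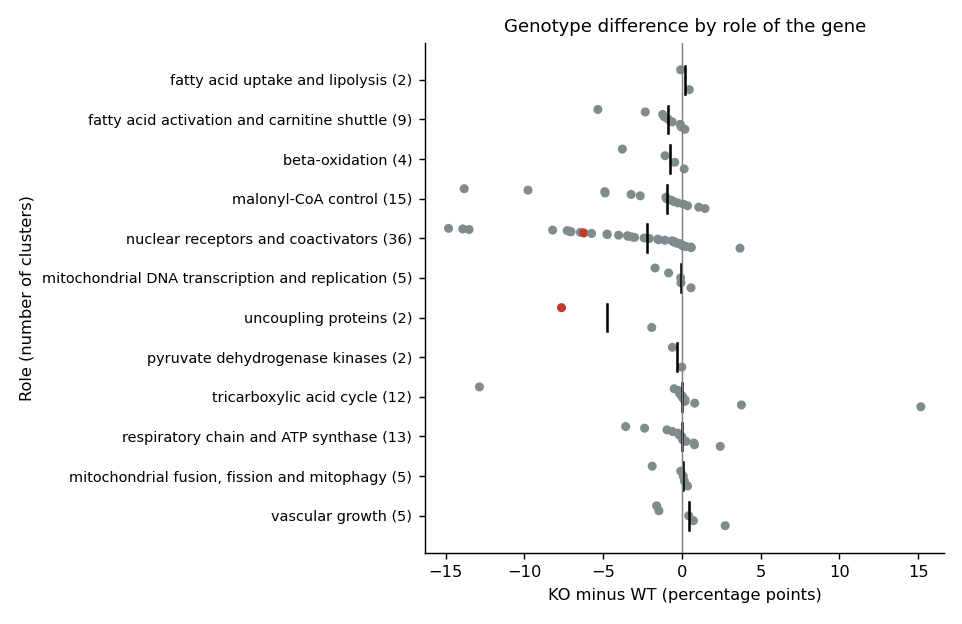
Difference in mean methylation, KO (mD3AKO) minus WT, in percentage points, for each cluster by the role of its gene. The number of clusters is in brackets, black bars are medians and red points are the 2 called clusters. The nuclear receptors and coactivators reach furthest to the left with the most clusters, and the respiratory chain stays close to 0.

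The Esrrb cluster spanned chr12:86421907-86423698, with 17 CpGs in the table. From the annotation, the first lay in the 5′ untranslated region, the next 2 in a coding exon and the other 14 in the following intron, and the first CpG was 24 bp downstream of an annotated start site. This start is internal to the gene, whose first annotated base is at chr12:86361117, and none of the 17 CpGs is in the authors' promoter column. It was covered by 1694 to 7201 calls per sample. At rest, the WT muscles had levels of 16.2%, 17.8%, 8.26%, 14.3% and 13.7%, and the mD3AKO muscles 6.58%, 7.61%, 8.601%, 6.80% and 7.08%. At 10 min the WT levels were 10.3%, 9.07%, 10.4%, 10.8% and 13.4%, and the mD3AKO levels 5.38%, 4.597%, 5.80%, 8.13% and 5.09%. Thus 4 of the 5 WT muscles at rest, and all 5 at 10 min, lay above every mD3AKO muscle of the same time. At 30 min the 5 WT levels ran from 12.2% to 22.2% around a median of 12.8%, and the 7 mD3AKO levels from 3.93% to 7.24% around 5.00%. At 60 min the 6 WT levels ran from 8.80% to 12.3% around 10.8%, and the 6 mD3AKO levels from 6.06% to 7.84% around 7.06%. The genotypes did not overlap at 10, 30 or 60 min, and a single WT muscle at rest lay within the mD3AKO range. How many of all clusters separate in this way at a single time was not counted.

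Over all times the Esrrb cluster was 12.5% ± 3.38 methylated in WT (SD, n = 21) and 6.32% ± 1.27 in mD3AKO (n = 23), a difference of -6.23 points, and all 23 mD3AKO muscles lay below the WT mean. The log2 odds ratio was -1.07 with a standard error of 0.16, and the adjusted p was 0.000132 (edgeR quasi-likelihood). At 30 min alone the adjusted p was 0.0422, which made it 1 of 110 clusters against 0.0176% of all clusters. At the other times no cluster of the set was called. The likelihood ratio test with a single dispersion for all clusters did not call the Esrrb cluster (adjusted p = 0.158). The same test with a dispersion per cluster, which was chosen after seeing the data, did (1.02e-18). These tests called 1488 and 1414 of all clusters.

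Levels were low at the start of the cluster and higher further into the intron. The 3 CpGs of the exon at the internal start and the 2 at 736 and 744 bp from the start site were between 0.79% and 3.79% methylated in WT. In the first printed stretch, from 859 to 913 bp, WT levels ran from 0.34% to 7.97% and mD3AKO levels from 0.16% to 3.34%. In the second, the CpG at 1203 bp was 11.3% ± 4.01 methylated in WT and 5.50% ± 2.46 in mD3AKO, the CpG at 1232 bp 11.1% ± 3.804 and 5.36% ± 2.33, and the CpG at 1267 bp 16.5% ± 5.71 and 7.96% ± 2.44. The next, at 1276 bp, was at 10.9% ± 6.16 and 6.54% ± 3.01. Those at 1232 and 1267 bp, chr12:86423115 and chr12:86423150, were called as single CpGs (adjusted p = 0.00558 and 0.00995, edgeR quasi-likelihood over 205304 CpGs). The highest levels were at the far end: 42.0% ± 13.5 and 23.6% ± 13.5 at 1347 bp, 17.3% ± 12.2 and 5.08% ± 7.33 at 1740 bp, and 48.4% ± 15.3 and 28.0% ± 11.2 at 1814 bp. The differences at the CpGs of 1347, 1740 and 1814 bp were larger in points, but with SDs of 7.33 to 15.3 points none of them passed as a single CpG (adjusted p = 0.340, 0.0860 and 0.179).

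**Figure D3:**
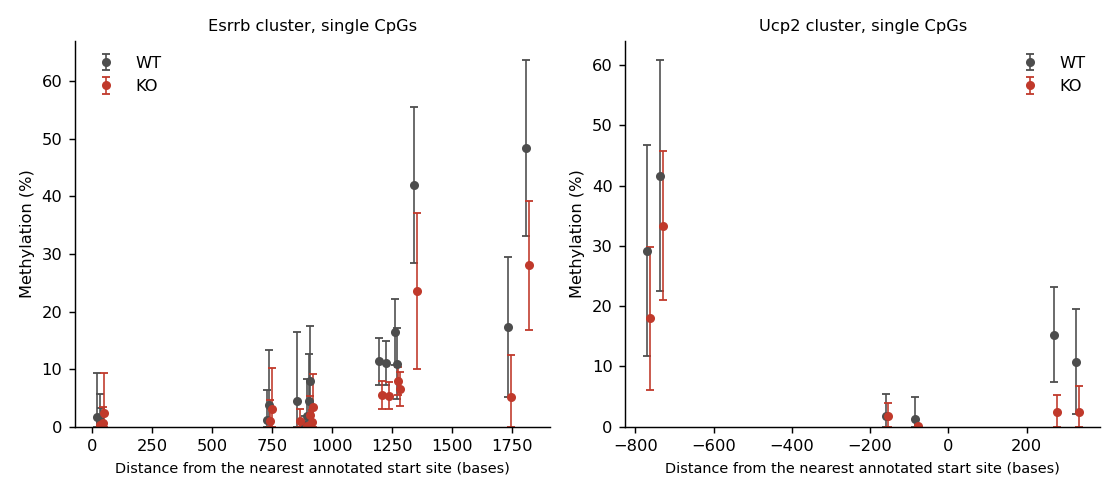
Methylation in percent of each CpG of the Esrrb cluster (left) and the Ucp2 cluster (right) against its distance in bases from the nearest annotated start site. Points are means over 21 WT (grey) and 23 KO (mD3AKO, red) samples and bars are SDs, cut at 0 where they would pass below it. In Esrrb every KO mean from 1203 bp onward lies below the WT mean, and in Ucp2 the KO mean is the lower at both CpGs downstream of the start site.

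Esrrb had 7 other clusters, all with a lower mean in mD3AKO and none called. Their WT levels ran from 2.25% to 86.6%. The largest of these differences was at a single intronic CpG, chr12:86425226, at 42.7% ± 21.2 in WT and 34.5% ± 20.7 in mD3AKO. Summed over its 42 gene body CpGs, Esrrb fell from 20.6% ± 5.00 to 15.0% ± 2.70 and was the one gene body of 42 that was called (adjusted p = 0.00482, edgeR quasi-likelihood), against 1.42% of 12391 gene bodies. The 17 CpGs of the called cluster are among those 42, so the gene body is not an independent measurement.

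Esrrg, a family member known to be expressed in oxidative muscle, had 14 clusters, 13 of them lower in mD3AKO and none called. The lowest p was upstream of the gene, at chr1:187605492-187605885, where 15 CpGs were 13.6% ± 6.06 methylated in WT (range 5.21% to 24.2%) and 7.19% ± 3.03 in mD3AKO (0.58% to 12.0%), with an adjusted p of 0.0884. All 23 mD3AKO muscles lay below the WT mean, but the ranges overlapped. Of the 15 CpGs, the 2 nearest to the gene carried its promoter annotation and the other 13, printed above, lay beyond the promoter window, at -3537 to -3400 bp from a start site. Over the 2 annotated CpGs the difference was -2.95 points, and each had an adjusted p of 1.0. The quasi-binomial model called the whole cluster (adjusted p = 0.00192), and called 1296 of all clusters against 557 in the main test. The likelihood ratio test with a dispersion per cluster, chosen after seeing the data, also called it. It was not called by limma with a pseudocount of 1 (adjusted p = 0.0503) or by the likelihood ratio test with a common dispersion (0.213).

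Within Esrrg, an intronic pair of CpGs at chr1:187710395-187710403 was 75.0% ± 12.9 methylated in WT and 60.2% ± 15.4 in mD3AKO, the widest downward difference of the set, and was not called (adjusted p = 0.253). At rest the WT levels of this pair were 78.6%, 84.0%, 81.3%, 80.9% and 81.5%, and the mD3AKO levels 56.8%, 57.1%, 43.2%, 61.6% and 41.4%, with no overlap, while at 10 min the mD3AKO levels ran from 55.1% to 100% and overlapped those of WT. The share of all clusters without overlap at rest was not counted. The cluster over the first exon of Esrrg, chr1:187608464-187609713, with 15 CpGs, was at 3.14% ± 1.75 and 1.67% ± 1.06 (adjusted p = 0.306). A single intronic CpG at chr1:187917995 was at 82.8% ± 13.7 and 69.3% ± 16.0 (adjusted p = 0.375). Another at chr1:188108297, covered by as few as 15 calls, was at 3.74% ± 8.25 and 0.29% ± 0.76, with a WT median of 0. One WT muscle at 60 min was at 33.3%, and the difference ranged from -3.64 to -1.97 points as each muscle was left out in turn. Esrra, the first described receptor of the family, had 2 clusters upstream of its start, at 0.26% ± 0.37 and 0.67% ± 1.30 in WT and 0.53% ± 0.71 and 0.34% ± 0.77 in mD3AKO, and neither was called. Over the 3 receptor genes, 22 of 24 clusters were lower in mD3AKO, with a median of -3.43 points, and 6 of the 24 had an unadjusted p below 0.05. The other 86 clusters of the set had a median of -0.17 points, with 55 lower and 6 below that p. Of all clusters, 62.4% were lower and 9.56% were below that p, with a median of -0.46 points. The 24 clusters include the called Esrrb cluster, and the genes were chosen with earlier results known. WT levels were not matched between the receptor genes and the others, and the comparison was not tested.

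None of the coactivators and other regulators was called for genotype. Ppargc1b, a coactivator of these receptors, had 28 CpGs in a cluster around its start at 0.51% ± 0.45 in WT and 0.42% ± 0.36 in mD3AKO. An intronic cluster of 7 CpGs in Pprc1, a related coactivator, was at 0.34% ± 0.65 and 0.39% ± 0.77. For Ppara, a nuclear receptor activated by fatty acids, the cluster at the start was at 0.95% ± 3.21 and 1.02% ± 2.98 and an intronic one at 55.0% ± 16.3 and 52.6% ± 14.2. Nrf1, a transcription factor of nuclear-encoded respiratory genes, had 4 clusters with differences from -7.14 to 3.69 points, none called.

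Ucp2 was the other gene with a called cluster. It spanned chr7:100492570-100493668, with 4 CpGs upstream of the start site and 2 in the first intron, covered by 373 to 1767 calls per sample. At rest the WT levels were 21.4%, 10.2%, 10.4%, 18.2% and 20.1%, and the mD3AKO levels 13.7%, 5.14%, 7.83%, 12.8% and 6.30%. At 10 min they were 13.5%, 14.7%, 27.4%, 7.27% and 25.0% in WT and 5.59%, 12.0%, 8.38%, 13.2% and 5.90% in mD3AKO. The genotypes overlapped at both times. At 30 min the WT levels ran from 14.2% to 26.8% and the mD3AKO levels from 2.67% to 17.1%, and at 60 min from 8.71% to 22.5% and from 2.12% to 15.2%. Over all times the cluster was 17.3% ± 5.78 methylated in WT and 9.69% ± 3.94 in mD3AKO, with a log2 odds ratio of -1.03, a standard error of 0.25 and an adjusted p of 0.0257 (edgeR quasi-likelihood). All 23 mD3AKO muscles were below the WT mean. The likelihood ratio test with a single dispersion did not call it (adjusted p = 0.201). Neither the Ucp2 nor the Esrrb cluster was called with the rest and 60 min muscles alone, or with the 10 and 30 min muscles alone.

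**Figure D4:**
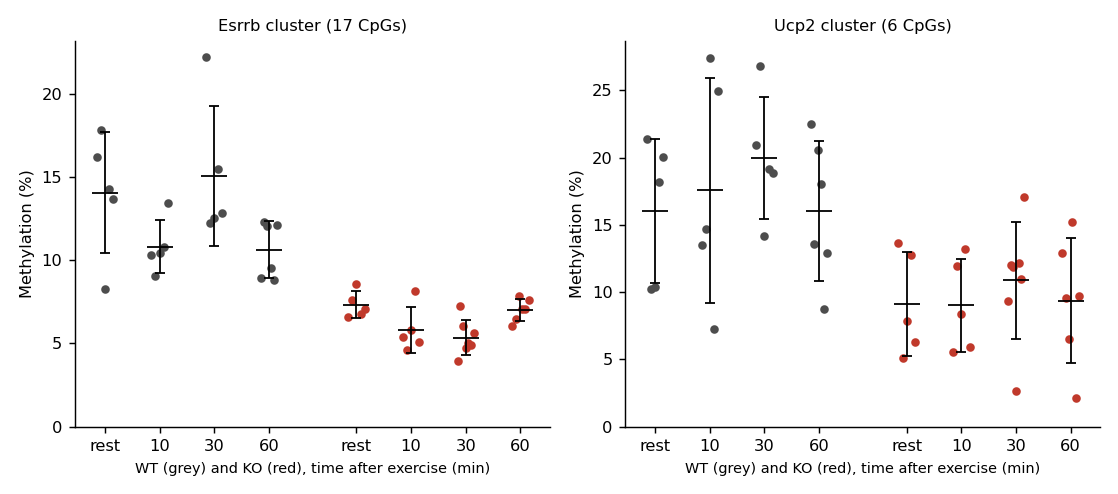
Methylation in percent of the Esrrb cluster (left) and the Ucp2 cluster (right) in each muscle, by genotype and time after exercise, with group means and SDs in black. In Esrrb the red points of KO (mD3AKO) lie below the grey points of WT at 10, 30 and 60 min, and in Ucp2 the genotypes overlap at every time.

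Within the Ucp2 cluster the CpGs differed. The CpG at chr7:100493612, 275 bp past the start site and the first in capitals in the intronic stretch, was 15.2% ± 7.88 methylated in WT and 2.49% ± 2.78 in mD3AKO, and was called (adjusted p = 0.00211, edgeR quasi-likelihood). The next, at 330 bp, was at 10.8% ± 8.74 and 2.45% ± 4.36 (adjusted p = 0.0902). The 2 CpGs at -157 and -82 bp, in the second upstream stretch, were at 1.78% and 1.28% in WT and at 1.69% and 0.08% in mD3AKO. Those at -767 and -734 bp, in the first, were at 29.2% ± 17.5 and 41.7% ± 19.2 in WT and at 18.0% ± 11.9 and 33.4% ± 12.4 in mD3AKO. The second Ucp2 cluster, inside the gene, was at 69.3% ± 3.78 and 67.4% ± 5.47. With the 2 in Esrrb, the Ucp2 CpG made 3 calls among 654 single CpGs, against 0.289% of all CpGs.

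Promoters of the set were mostly unmethylated. Of 43 promoters with CpGs, 36 had a WT level below 5%, and their median WT level was 0.68%. Across all 9761 promoters, 79.3% were below 5% and the median was 0.84%. None of the 43 was called for genotype by edgeR's quasi-likelihood test, against 0.789% of all promoters, and 3 had an unadjusted p below 0.05, against 8.13% of all promoters. The lowest adjusted p was that of Ucp2 (0.0869), whose 6 promoter CpGs are those of its called cluster. Polg, the catalytic subunit of the mitochondrial DNA polymerase, was next: its 8 promoter CpGs at chr7:79466680-79466903 were at 0.31% ± 0.77 in WT and 0.89% ± 0.85 in mD3AKO (adjusted p = 0.120 as a promoter and 0.0800 as a cluster). The likelihood ratio test with a single dispersion called Polg (adjusted p = 0.00756 as a promoter), at levels below 1% in both genotypes. The third was Esrrg, at 5.23% ± 2.13 and 3.13% ± 1.53 over 19 CpGs (adjusted p = 0.317).

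Genes of fatty acid handling were not called. Cpt1b, the muscle form of the carnitine palmitoyltransferase that admits fatty acids to the mitochondrion, was at 29.6% ± 7.70 in WT and 29.0% ± 7.94 in mD3AKO over 11 CpGs near its start. Cpt1a, the liver form, had its largest difference upstream at chr19:3321738-3321859, at 5.09% ± 4.53 and 2.77% ± 2.41 (adjusted p = 0.704). Lpl, the lipase that frees fatty acids from circulating lipoproteins, was at 0.16% ± 0.44 and 0.63% ± 1.15 over 3 CpGs at chr8:68880884-68880963 (adjusted p = 0.490). Acsl1, which activates fatty acids with coenzyme A, ranged in its differences from -5.33 to -0.10 points. Of the beta-oxidation genes, Hadhb, a subunit of the mitochondrial trifunctional protein, had the largest difference, at 60.0% ± 14.3 and 56.2% ± 12.0 over 3 intronic CpGs at chr5:30173239-30173274 (adjusted p = 0.921). In malonyl-CoA control, the widest difference was at a single CpG annotated to Acaca, an acetyl-CoA carboxylase, at 60.0% ± 19.6 and 46.2% ± 21.6 (adjusted p = 0.690). In Acacb, the carboxylase whose malonyl-CoA restrains CPT1 in muscle, 7 of 9 clusters were lower in mD3AKO, and the lowest p was at a single intronic CpG at chr5:114199634, at 19.8% ± 16.2 and 10.0% ± 9.91 (adjusted p = 0.484). Its widest difference over 3 or more CpGs was upward, at 4.59% ± 3.42 and 6.06% ± 5.20 at chr5:114174122-114174254 (adjusted p = 0.987).

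The widest upward difference of the set, which was not called, was in Idh2, a mitochondrial isocitrate dehydrogenase. A coding CpG at chr7:80097867 was 43.5% ± 15.9 methylated in WT (range 0 to 64.9%, median 46.3%) and 58.7% ± 18.6 in mD3AKO (28.6% to 87.9%, median 59.5%). It was covered by as few as 10 calls (adjusted p = 0.301). A pair of CpGs elsewhere in Idh2 differed the other way, at 56.2% ± 23.9 and 43.4% ± 22.5, and the 3 CpGs at its start were at 0.86% ± 2.06 and 1.68% ± 6.01, the latter with a median of 0. The clusters of Idh3a, Ogdh, Sdha, Sdhb, Fh1 and Mdh2, which encode other enzymes of the cycle, were at 0.20% to 0.81% in WT and differed by -0.17 to 0.20 points. For pyruvate dehydrogenase kinases, which restrain entry of pyruvate, Pdk2 was at 1.28% ± 2.89 and 0.68% ± 1.58 near its start.

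In the respiratory chain, Ndufv1, of complex I, was at 1.63% ± 1.45 in WT and 2.43% ± 2.22 in mD3AKO over 5 intronic CpGs at chr19:4012196-4012370 (adjusted p = 0.904). Atp5b, the catalytic beta subunit of ATP synthase, was at 0.33% ± 0.51 and 0.31% ± 0.44. Among genes of mitochondrial DNA upkeep, Twnk, the helicase, was at 3.44% ± 1.898 and 2.60% ± 1.01 over 24 CpGs shared with the neighbouring gene Mrpl43 (adjusted p = 0.751). Opa1, a fusion protein of the inner membrane, was at 0.26% ± 0.67 and 0.62% ± 1.27 near its start. Vegfa, the growth factor for capillaries, was at 0.37% ± 0.88 and 0.80% ± 0.80 in the cluster of lowest p, 16 CpGs at chr17:46031168-46031285 (adjusted p = 0.471), and at 85.6% ± 10.0 and 84.0% ± 8.87 in 3 CpGs of its untranslated region at chr17:46018764-46018795.

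Time after exercise gave no call among the 110 clusters, by edgeR's quasi-likelihood test of the 3 differences from rest averaged over genotypes, and 0.0% of all clusters were called. At an unadjusted p below 0.05 there were 4 of the 110, against 2.86% of all clusters. For genotype by time there was again no call, with 0.0% of all clusters called, and 5 of the 110 had an unadjusted p below 0.05, against 2.74%. Each later time against rest within each genotype called no cluster of the set: at 10, 30 and 60 min in WT 5, 3 and 5 clusters, and in mD3AKO 5, 2 and 3 clusters, had an unadjusted p below 0.05, and 0.0% of all clusters were called in each of the 6 contrasts. Of all clusters, 4.29%, 3.17% and 3.67% in WT and 2.89%, 2.8% and 3.0% in mD3AKO had an unadjusted p below 0.05.

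The cluster with the lowest p for time was a single intronic CpG of Ppargc1b, covered by 18 to 214 calls. In WT it was at 21.4%, 49.2%, 18.2%, 25.8% and 80.4% at rest and at 0, 1.22%, 1.70%, 0 and 0 at 10 min, with no overlap. The CpG was picked for its low p, and the share of all clusters without overlap between these groups was not counted. At 30 min the WT levels ran from 0 to 36.5% and at 60 min from 0 to 13.3%. In mD3AKO the levels were 19.2%, 8.86%, 1.61%, 6.12% and 28.4% at rest and 0, 0, 11.1%, 20.3% and 5.08% at 10 min, which overlapped. The unadjusted p was 0.00128 for time and the adjusted p was 1.0. The likelihood ratio test with a single dispersion called this CpG for time (adjusted p = 0.00266). A neighbouring CpG of Ppargc1b was at 22.4% ± 19.8 in WT and 21.9% ± 17.2 in mD3AKO over all times.

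Mlycd, malonyl-CoA decarboxylase, had the next lowest p for time (0.00161), in 5 CpGs at chr8:119394598-119394668 upstream of its start. The mean levels at rest, 10, 30 and 60 min were 2.52%, 1.55%, 0.64% and 0.07% in WT and 2.31%, 0.32%, 0.07% and 0.10% in mD3AKO. At 60 min 5 of 6 WT and 4 of 6 mD3AKO muscles were at 0. At rest 2 of 5 muscles of each genotype were at or below 0.15%, so the groups overlapped. The adjusted p was 1.0, and the likelihood ratio test with a single dispersion gave 0.00368. The third, 4 intronic CpGs of Esrrg at chr1:187651257-187652338, stood at 14.7% ± 5.10, 8.29% ± 3.42, 8.53% ± 4.76 and 5.68% ± 3.93 in WT and at 10.6% ± 5.09, 3.48% ± 4.06, 10.3% ± 3.26 and 9.22% ± 5.32 in mD3AKO. Its unadjusted p was 0.00932 for time and 0.0181 for genotype by time.

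For genotype by time the lowest p (0.00164) belonged to a single intronic CpG of Vegfa at chr17:46027541. It was at 0 in all 5 WT muscles at 10 min and at 3.47%, 0, 12.5%, 16.3% and 7.63% in WT at 30 min, and at 0 in all 7 mD3AKO muscles at 30 min. The second (0.00684) was a pair of CpGs at chr19:46045315-46045379, which the authors' columns place in the promoter and gene body of Pprc1, at 0 in all WT muscles at 10 min and at 8.75%, 0, 0, 2.86% and 15.9% in mD3AKO. In both clusters most muscles had no methylated call, and the adjusted p was 1.0. The likelihood ratio test with a single dispersion called both (adjusted p = 0.00362 and 0.0252).

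**Figure D5:**
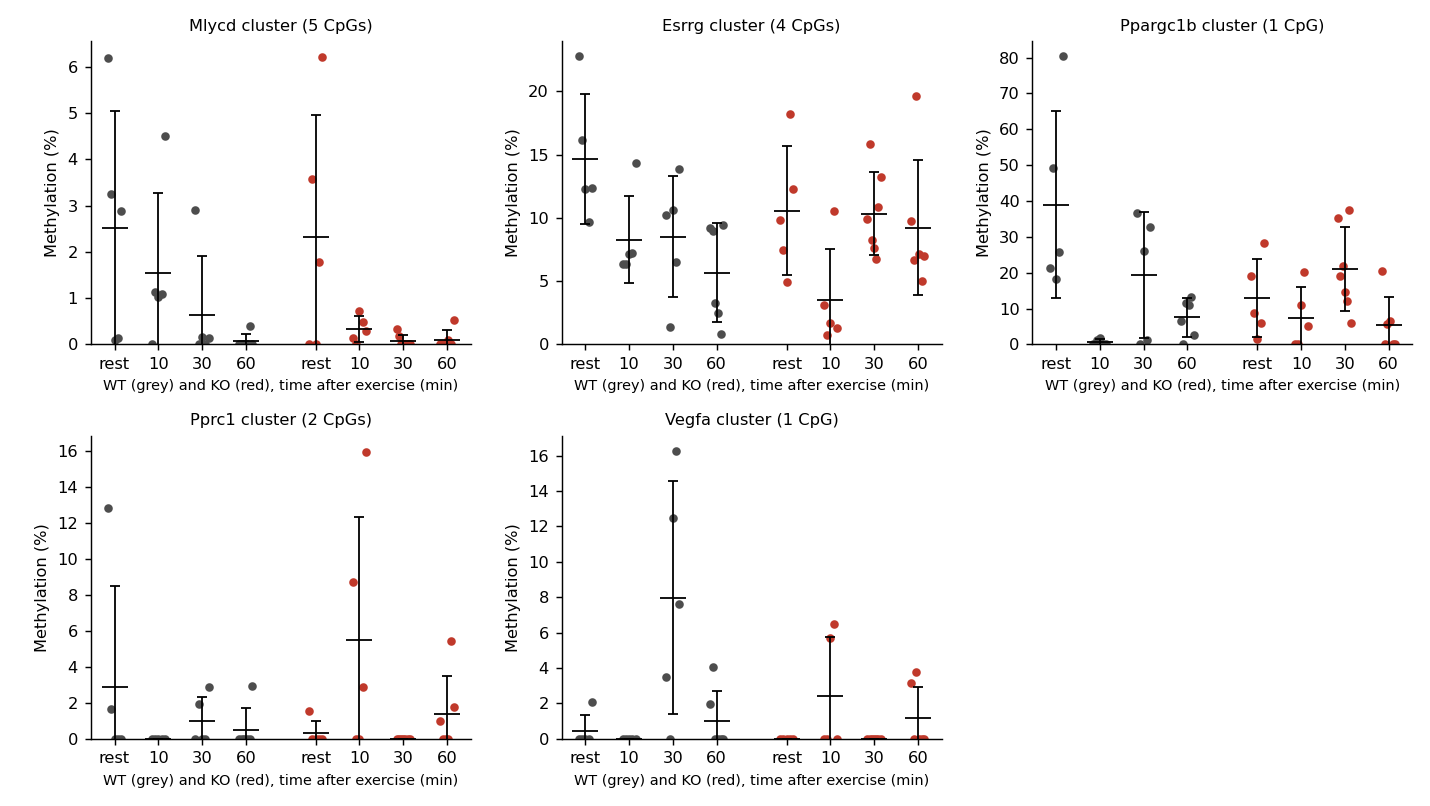
Methylation in percent of the 5 clusters with the lowest p for time or for genotype by time, in each muscle by genotype and time, with group means and SDs in black. No cluster passed the adjusted test. Error bars are cut at 0. The spread within groups is wide, and in the Mlycd, Pprc1 and Vegfa panels many muscles are at 0.

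Other genes of the same pathways, outside the set, were taken from a wider list of 182 genes, of which 144 had CpGs, in 246 clusters. None of these clusters was called for time or for genotype by time (edgeR quasi-likelihood). For genotype 1 of the 246 clusters (0.41%) was called, lower in mD3AKO. The median difference over the 246 clusters was -0.19 points. That call was in none of the following groups: 54 clusters of fatty acid uptake, activation and oxidation, 66 of the respiratory chain and ATP synthase, 37 of pyruvate entry and the tricarboxylic acid cycle, 26 of transcription and mitochondrial DNA maintenance, 22 of vascular growth, and 2 of uncoupling and nucleotide exchange.

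Marker promoters of the cell types in muscle were few in the table. Of 16 skeletal muscle genes 5 had promoter CpGs, at 0.55% to 11.5% in WT, with the highest, Acta1, resting on 1 CpG. Among blood and immune genes, Csf1r was at 65.7%. Endothelial Kdr was at 1.19% and fibroblast Pdgfra at 0.85%, and none of 5 adipocyte genes had promoter CpGs. Pax7, a satellite cell gene, was at 17.3% ± 5.48 in WT and 10.5% ± 3.08 in mD3AKO, and Csf1r at 65.7% ± 13.6 and 49.7% ± 16.2, so that both means were lower in mD3AKO, as at Esrrb and Ucp2. The paper reports lower methylation of the Pax7 promoter in mD3AKO soleus and in other muscles, and names Pax7 a putative DNMT3A target. The Pax7 level is therefore not a measure of satellite cell number here. The part of these cell types in the Esrrb and Ucp2 results was not tested.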

How the data were processed

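RRBS libraries of soleus muscle were trimmed with Trim Galore 0.4.0 and cutadapt 1.9.1 and aligned to mm10 with Bismark 0.18.1, per the submitters' processing notes. The authors deposited methylated and unmethylated counts per CpG and sample, keeping CpGs that reached 8 reads in all samples, outside chromosomes X, Y and M, with promoter (3000 bp upstream to 1000 bp downstream) and gene body columns. Samples with few aligned reads had been left out by the authors. The 44 samples with counts were grouped by their labels, and 6 of the 50 samples were not used here. Each replicate was the muscle of 1 mouse. PCR copies cannot be told apart, and CpGs on the same read are counted separately. The depths given can therefore overstate the number of independent molecules, and they do not describe the spread between mice.

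Clusters were taken from the authors' cluster column, which joins CpGs at most 100 bp apart, and counts were summed per cluster, promoter and gene body. The authors' clusters hold more CpGs than have counts, with 133 against 17 in the called Esrrb cluster and 73 against 6 in that of Ucp2. CpGs with counts in the same cluster can therefore lie more than 100 bp from each other. A level is methylated calls as a percentage of all calls. Genotype, time and their interaction were tested with edgeR 4.0.16 (quasi-likelihood F test, a coefficient per sample and 8 group means) in R 4.3.3, with Benjamini-Hochberg adjustment over all features of a kind. The code was tested on simulated data. Alternatives were edgeR's likelihood ratio test with a common dispersion or one per cluster (the latter chosen after seeing the data), a quasi-binomial model (pseudocount 0.5), limma 3.58.1 (pseudocounts 1 and 0.5), a coverage minimum of 20, sex as a term, sample numbers 1 to 25 or 26 to 50 alone, and leaving out each sample. Gene features and distances to the nearest start came from GENCODE M21 basic transcripts, and sequences from the RefSeq genome GRCm38.p6.

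The genes and lists were chosen with earlier results of these data known. Clusters were named when called, when among the 12 lowest p for genotype or the 3 lowest for time or interaction, or as the widest difference of at least 3 CpGs in a role. Other clusters given with values were chosen after their values were seen. Results for 2 genes outside the set are not reported here.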

Additional observations from a re-analysis of the deposited data

Results flagged for a closer look

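In 193 groups of samples over 26 named clusters, 36 values lay far from the rest of their group by Dixon's criterion. Normally distributed values exceed it in about 1 of 20 groups. That rate does not apply here, because a value above 0 is always flagged when all other samples of its group are at 0. They came from 26 samples, with at most 4 from any sample, and no explanation was tested.

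In the Mlycd cluster the highest values were 4.51% in WT at 10 min, 2.91% in WT at 30 min, 0.40% in WT at 60 min and 0.53% in mD3AKO at 60 min. For Pdk2 they were 0.76%, 10.7% and 2.15% in WT at 10, 30 and 60 min, and 5.78% and 2.30% in mD3AKO at 10 and 30 min. For Lpl they were 0.20% in WT at 10 min and 3.15%, 2.62% and 2.78% in mD3AKO at rest, 10 and 60 min. The Pprc1 cluster had 12.8% in WT at rest, 2.94% in WT at 60 min, and 1.55% and 5.46% in mD3AKO at rest and 60 min. In most of these groups the other samples were at or near 0.

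In Esrrg, the first exon cluster had 7.63% in WT at 60 min. Its CpG at chr1:188108297 had 0.68% in WT at 10 min, 33.3% in WT at 60 min, where the other samples lay between 0 and 1.21%, and 2.41% in mD3AKO at rest. The intronic cluster at chr1:187651257-187652338 had 14.4% in WT at 10 min, and 10.6% and 19.6% in mD3AKO at 10 and 60 min.

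In Vegfa, the 16 CpG cluster had 4.01% and 0.77% in WT at rest and 30 min and 2.67% in mD3AKO at rest, and the CpG at chr17:46027541 had 2.08% in WT at rest. The cluster at the start of Idh2 had 2.83% in WT at 30 min, and 10.3% and 27.4% in mD3AKO at 10 and 60 min. Single values were 0.10% for Polg in WT at 60 min, 8.57% for Twnk in WT at rest, 0.29% for Opa1 in WT at rest and 20.4% for the Ppargc1b CpG in mD3AKO at 60 min. The one low value was 38.7% for Hadhb in WT at 30 min, where the others lay between 55.7% and 61.3%.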

How the results depend on the processing

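The Esrrb and Ucp2 clusters were both called under limma with either pseudocount, a coverage minimum of 20, sex as a term, the quasi-binomial model and the likelihood ratio test with a dispersion per cluster. Of all clusters, limma called 895 with a pseudocount of 1 and 792 with 0.5, and the fit with sex as a term called 569. The coverage minimum of 20 left 28165 clusters, of which 431 were called. With a common dispersion 2 other clusters were called instead, Polg and the Esrrg CpG at chr1:188108297, while 1488 of all clusters were called. The number of clusters called for genotype was 2 in the main test, 5 in the likelihood ratio test with a dispersion per cluster (chosen after seeing the data) and 6 in the quasi-binomial model, which added 3 Esrrg clusters and another of Esrrb, while 1414 and 1296 of all clusters were called. It was 0 with sample numbers 1 to 25 (rest and 60 min) and 0 with numbers 26 to 50 (10 and 30 min), where 25 and 33 of all clusters were called in place of 557. Each of these sets holds fewer samples. In them the adjusted p was 0.503 and 0.0817 for Esrrb and 0.614 and 0.482 for Ucp2. The median difference was -0.19 points with numbers 1 to 25. For promoters 1 was called by the likelihood ratio test, 2 by the quasi-binomial model and 1 by limma, against 0. For gene bodies 2 were called at a coverage minimum of 20, against 1. For single CpGs 7 were called by the quasi-binomial model and 8 by limma, against 3. The numbers called over all promoters, gene bodies and CpGs in these settings were not compared, so these counts are not a result about the set. The likelihood ratio test with a common dispersion called 2 clusters for time, 2 for genotype by time and 1 for a time against rest, which with a dispersion per cluster was again 1, against 0 in the main test. The common dispersion called 0.768% of all clusters for time, 0.819% for genotype by time and 315 clusters for a time against rest, and the dispersion per cluster called 8 for the last. The causes were not tested. Each sample was left out in turn in the quasi-binomial model, and the main test was not rerun in this way. For genotype this gave 5 to 7 clusters, against 6 with all samples in that model. It gave 2 to 2 promoters, 1 to 1 gene bodies, 6 to 8 CpGs, and 0 to 0 clusters for time and interaction. The median difference, which rests on no model, ran from -0.61 to -0.33 points as each sample was left out. Among the differences that were not called, the sign turned for the start of Idh2 (-0.36 to 1.13 points), the Pprc1 pair (-0.09 to 1.15) and the 4 Esrrg CpGs (-1.01 to 0.17), and the range was -0.84 to -0.13 for Pdk2, 0.14 to 0.50 for Opa1, -5.04 to -2.51 for Hadhb, -0.77 to -0.27 for Mlycd and -5.17 to -0.81 for the Ppargc1b CpG. No paired analysis was possible because each sample number belongs to a single mouse.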
